A study of Homo sapiens with 6 samples.

Results

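The class 3 semaphorins and the plexins that pass on their signal were examined at the RNA level in WT ARPE-19 cells and in the POLDIP2 KO line. They comprised 10 genes, namely the ligands SEMA3A, SEMA3B, SEMA3C, SEMA3D, SEMA3E and SEMA3F and the receptors PLXNA1, PLXNA2, PLXNA3 and PLXND1, out of 37902 genes in the deposited table. The genes were chosen by family name with the POLDIP2 KO against WT values of these same libraries already known, so their differences between the lines are given as a description. Counts of how many of them a test called are printed beside the share of all genes called, and nothing is read from them. All 10 passed the expression filter, a mean normalised count of 10 or more across the 6 libraries, as did 14684 genes in all. The other members of both subfamilies, SEMA3G and PLXNA4, did not pass this filter, with 0 to 7 and 1 to 16 reads per library.

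ARPE-19 is an established human line that comes from retinal pigment epithelium (RPE). WT is the parental line, and POLDIP2 KO was made from it with a lentivirus (lentiCRISPRv2) encoding SpCas9 and an sgRNA to the POLDIP2 coding sequence, after which cells were selected with puromycin and expanded. No cloning of single cells is described for it, and WT is not described as having received a virus or puromycin. The edit, the vector, the selection and any divergence during expansion therefore cannot be told apart. Both lines were under regular maintenance and were sampled at day 3, with 3 biological replicates each, and polyadenylated RNA was sequenced as stranded single-end libraries. Whether same-numbered replicates were grown together is not stated, and the spread between replicates may be partly technical. POLDIP2, the targeted gene, measured 3919, 4827 and 4798 normalised counts in the WT libraries (replicates 1, 2 and 3, the order used throughout) and 1063, 1248 and 1143 in the POLDIP2 KO libraries, so every library followed its label while part of the RNA remained. Of 13 RPE markers, KRT8, KRT18, MITF and OTX2 were expressed in every library, whereas RPE65, the visual cycle isomerase, was at 0 and TYR, the pigment enzyme, was at 3 reads or fewer. Of the 11 RPE markers that passed the expression filter, limma called 0, against 0.17% of all genes tested. An unadjusted limma p under 0.05 was found for 1, against 6.48%. Lower in POLDIP2 KO without overlap were 2, against 5.44% of all genes, and higher without overlap were 0, against 5.46%. The lower ones were LRAT, a visual cycle enzyme (106, 75.3 and 29.2 against 22.1, 24.4 and 28.8), and SERPINF1, which encodes the secreted factor PEDF (103, 168 and 108 against 101, 74.1 and 49.6). The libraries held 31532797 to 45795509 reads in genes, and 3 reads, taken as the floor, correspond to 2.44 to 3.69 normalised counts.

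Class 3 semaphorins are secreted guidance cues, best known for repelling growing axons and for shaping blood vessels, including those of the retina. Most of them bind a neuropilin, NRP1 or NRP2, which holds the ligand but signals through a partner plexin of the A type, whereas SEMA3E can bind PLXND1 directly. The cytoplasmic part of a plexin acts on small GTPases of the Rap and R-Ras kind and on the cytoskeleton, and furin-type proteases cut class 3 semaphorins and so alter their activity.

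The genes lie in few places of the genome. On GRCh38, SEMA3C, SEMA3E, SEMA3A and SEMA3D follow each other on the minus strand of chromosome 7, within 4440 kb. SEMA3E (chr7:83363238-83649139) and SEMA3A (chr7:83955777-84492724) are 307 kb apart with 0 protein-coding genes between them, and SEMA3A and SEMA3D (chr7:84995553-85187056) are 503 kb apart, also with 0. SEMA3C (chr7:80742538-80922359) is separated from SEMA3E by HGF, CACNA2D1 and PCLO. SEMA3F (chr3:50155045-50189075) and SEMA3B (chr3:50267558-50277546) lie 78.5 kb apart on the plus strand of chromosome 3, with 3 protein-coding genes between them, and PLXNA1 (chr3:126982693-127037389) and PLXND1 (chr3:129555214-129606676) lie on the same chromosome. PLXNA2 (chr1:208022242-208244384) and PLXNA3 (chrX:154458281-154477779) stand alone.

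RefSeq promoter entries on GRCh38.p14 were found for 9 of the 10 genes, in 17 entries, and none for SEMA3A. The 250 bases before the RefSeq start are shown for SEMA3E and PLXNA2, the genes whose libraries did not overlap between the lines, and for SEMA3F, which was higher in all 3 same-numbered pairs of libraries. SEMA3E and SEMA3F have further entries downstream, and the most upstream one is shown. Both strands were searched for 5 motifs, and capitals mark the matches. The TATA box was searched as TATAAA. The CCAAT box was searched by the letters of its name. The core of a GC box, a common site of Sp1-type factors, was searched as GGGCGG. The E-box was searched as CACGTG, and the element that AP-1 factors recognise as TGANTCA. The lines read 5′ to 3′ on the strand of the gene, from chr7:83649140-83649389 (minus), chr1:208244385-208244634 (minus) and chr3:50154808-50155057 (plus).
SEMA3E: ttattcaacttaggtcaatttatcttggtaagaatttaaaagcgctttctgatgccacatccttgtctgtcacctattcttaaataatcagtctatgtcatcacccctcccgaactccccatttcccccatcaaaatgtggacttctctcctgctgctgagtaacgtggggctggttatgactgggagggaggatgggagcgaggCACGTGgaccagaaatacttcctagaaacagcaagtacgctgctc
PLXNA2: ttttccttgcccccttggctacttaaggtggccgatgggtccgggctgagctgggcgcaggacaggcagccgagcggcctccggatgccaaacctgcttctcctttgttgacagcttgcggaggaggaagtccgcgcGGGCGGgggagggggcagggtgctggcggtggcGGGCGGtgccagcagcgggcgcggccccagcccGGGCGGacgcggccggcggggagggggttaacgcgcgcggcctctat
SEMA3F: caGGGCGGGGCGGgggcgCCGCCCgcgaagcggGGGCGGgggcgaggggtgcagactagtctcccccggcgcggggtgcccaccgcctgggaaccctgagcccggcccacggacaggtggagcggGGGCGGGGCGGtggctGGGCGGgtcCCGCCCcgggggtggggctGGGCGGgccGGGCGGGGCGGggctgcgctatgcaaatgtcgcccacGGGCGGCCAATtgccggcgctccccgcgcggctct

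The SEMA3E window held CACGTG at position -45 from the start and no other of these motifs, and 46.4% of its bases were G or C, with 6 CpG dinucleotides. The PLXNA2 window held GGGCGG at -113, -80 and -47, with 72.4% G or C and 27 CpG. In the SEMA3F window GGGCGG matched 12 times, counting matches that overlap each other, and CCAAT matched once, at -29, where it abuts a GC box, with 82.0% G or C and 34 CpG. The median of all 35116 RefSeq promoters over the same length was 58.0% G or C and 11 CpG. Of those promoters, 10.7% held the TATA box, 32.0% the CCAAT box, 42.6% the GC box core, 6.34% the E-box and 6.57% the AP-1 type element. These matches describe letters in a window, and binding was not measured.

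Levels of different genes were compared as normalised counts per kilobase of merged exons. Of the ligands, SEMA3C and SEMA3B dominated in both lines. As mean ± SD of 3 libraries, SEMA3C had 2022 ± 190 normalised counts per kb in WT and 2312 ± 412 in POLDIP2 KO, and SEMA3B had 1421 ± 277 and 1751 ± 282. Both were among the more abundant RNAs of the cells, at the 95.6th and 93.4th percentile in WT of the 13799 tested genes with a known length. The other 4 ligands were far lower in WT, at 87.0 ± 10.8 for SEMA3E, 38.1 ± 17.6 for SEMA3F, 18.4 ± 11.4 for SEMA3A and 14.4 ± 3.53 for SEMA3D per kb. Among the receptors, PLXND1 had 713 ± 350 per kb in WT and 921 ± 551 in POLDIP2 KO, PLXNA1 414 ± 73.7 and 384 ± 80.2, PLXNA3 146 ± 94.8 and 176 ± 68.7, and PLXNA2 58.7 ± 14.8 and 30.6 ± 8.88.

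In WT the order of mean levels per kb was SEMA3C, SEMA3B, PLXND1, PLXNA1, PLXNA3, SEMA3E, PLXNA2, SEMA3F, SEMA3A and SEMA3D. Of the 9 pairs of neighbours in this order, 5 had overlapping ranges over the 3 WT libraries. The exceptions were SEMA3C above SEMA3B, PLXND1 above PLXNA1, PLXNA1 above PLXNA3 and SEMA3E above PLXNA2. Of the overlapping pairs, SEMA3B above PLXND1, PLXNA2 above SEMA3F and SEMA3F above SEMA3A held within every WT library. PLXNA3 against SEMA3E and SEMA3A against SEMA3D changed order between WT libraries. In POLDIP2 KO the order was SEMA3C, SEMA3B, PLXND1, PLXNA1, PLXNA3, SEMA3F, SEMA3A, SEMA3E, PLXNA2 and SEMA3D, and the neighbours without overlap were SEMA3B above PLXND1, PLXND1 above PLXNA1, PLXNA1 above PLXNA3 and PLXNA2 above SEMA3D. Of the overlapping neighbours there, only SEMA3A against SEMA3E changed order between POLDIP2 KO libraries. Ranges over the 6 libraries of both lines, which the differences between the lines widen, left PLXND1 against PLXNA1 and PLXNA1 against PLXNA3 without overlap. From WT to POLDIP2 KO, SEMA3E moved from rank 6 to 8 and PLXNA2 from 7 to 9, while SEMA3F moved from 8 to 6 and SEMA3A from 9 to 7, and the other 6 genes held their rank. With the length of the longest transcript in place of merged exons, the WT order was the same but SEMA3C and SEMA3B overlapped, and in POLDIP2 KO SEMA3B stood above SEMA3C, also with overlap.

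In the 6 ligands the lines differed in both directions, and SEMA3E was the ligand whose libraries did not overlap. SEMA3E had 837, 706 and 662 normalised counts in WT and 445, 381 and 244 in POLDIP2 KO, so the highest POLDIP2 KO library was below the lowest WT library. The means were 735 ± 91.0 and 357 ± 103, a ratio of 0.485, and the log2 fold change from limma on log2(normalised count + 1), POLDIP2 KO minus WT, was -1.08 (standard error 0.241). Here and below, a lower value can mean fewer cells that express the gene or less RNA per cell, which cannot be told apart in bulk RNA. The value of SEMA3E was lower in each pair of same-numbered libraries, with ratios of 0.532, 0.539 and 0.369.

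SEMA3A, the axon repellent first known as collapsin, had 88.8, 290 and 132 normalised counts in WT and 273, 907 and 264 in POLDIP2 KO. WT replicate 2 was above POLDIP2 KO replicates 1 and 3, so the lines overlapped, but replicate 2 was the highest library within each line, and the same-numbered ratios were 3.08, 3.13 and 2.01. The means were 170 ± 106 and 481 ± 369, and the log2 fold change was 1.42 (standard error 0.599), which was 0.83 when replicate 2 of POLDIP2 KO was left out and 1.89 when that of WT was. SEMA3F, a ligand that prefers NRP2, had 108, 168 and 276 in WT and 245, 605 and 515 in POLDIP2 KO. WT replicate 3 was above POLDIP2 KO replicate 1, and the same-numbered ratios were 2.27, 3.61 and 1.87. The means of SEMA3F were 184 ± 85.1 and 455 ± 187, and its log2 fold change was 1.31 (standard error 0.446). SEMA3A and SEMA3F thus had the largest positive log2 fold changes of the 10 genes, and both overlapped between the lines.

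The abundant ligands overlapped between the lines. SEMA3C had 11850, 13658 and 11493 normalised counts in WT and 13145, 16958 and 12209 in POLDIP2 KO, a log2 fold change of 0.18 (standard error 0.151). SEMA3B had 8772, 9429 and 6393 in WT and 11969, 9004 and 9335 in POLDIP2 KO, a log2 fold change of 0.31 (standard error 0.183). SEMA3C was higher in all 3 same-numbered pairs by ratios of 1.11, 1.24 and 1.06, and SEMA3B was higher in 2 pairs. SEMA3D had 91.6, 150 and 115 in WT and 122, 103 and 70.5 in POLDIP2 KO. Its log2 fold change was -0.28 (standard error 0.304), and it overlapped and was lower in 2 of 3 pairs. The neighbours SEMA3E, SEMA3A and SEMA3D on chromosome 7 therefore had values in different directions, and CACNA2D1 and PCLO, the expressed genes between SEMA3C and SEMA3E, had log2 fold changes of 0.24 and 0.05.

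**Figure D1:**
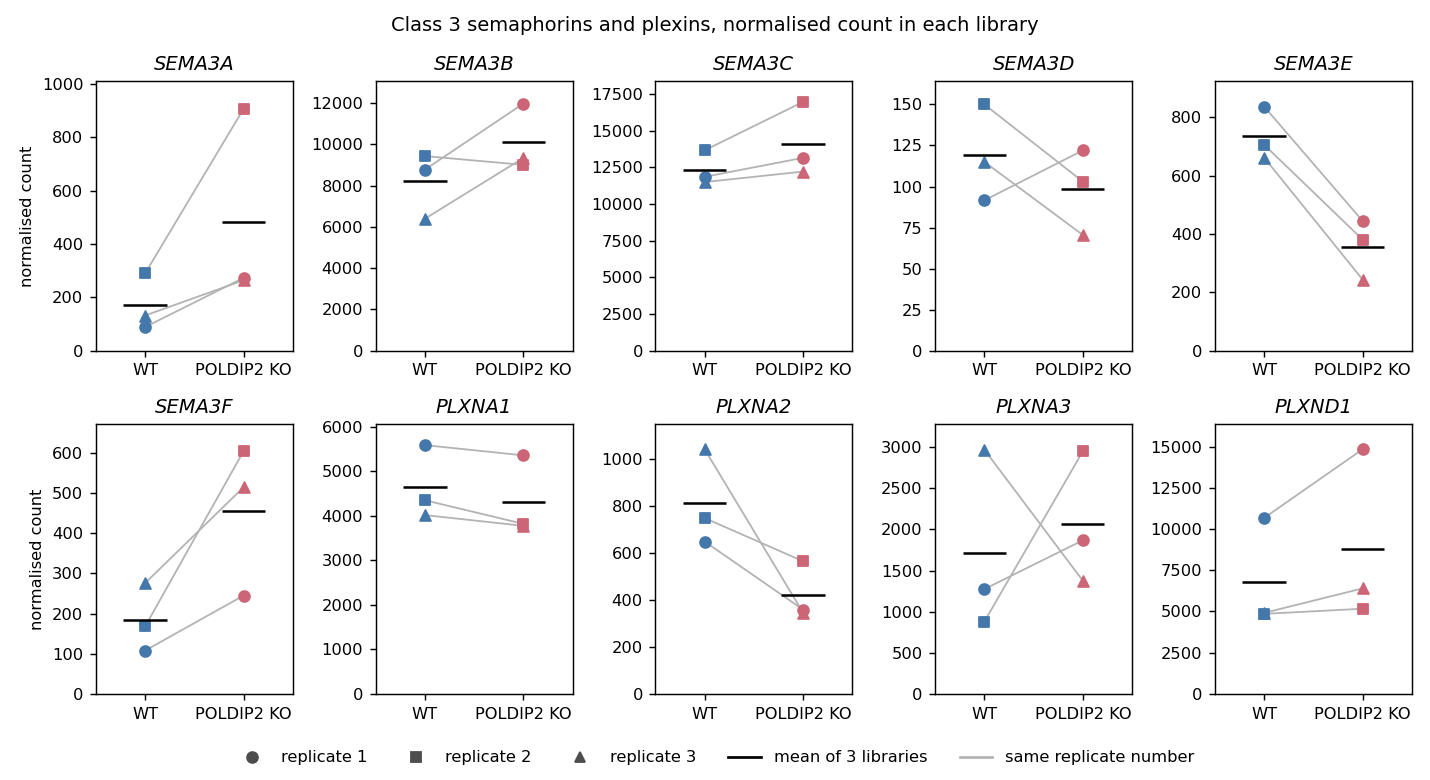
Normalised count (linear axes from 0) of each of the 10 genes in the WT and POLDIP2 KO libraries, with marker shape for the replicate number, grey lines between same-numbered libraries and black bars for the mean of 3 libraries. SEMA3E and PLXNA2 have no overlap between the lines, SEMA3A and SEMA3F go up along all 3 grey lines, and the lines of PLXNA3 cross.

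In terms of the pool of class 3 ligand RNA, the sum of the 6 ligands per kb was 3601 ± 443 in WT and 4264 ± 426 in POLDIP2 KO. SEMA3B and SEMA3C together made up 95.6 ± 0.665% of it in WT and 95.3 ± 1.35% in POLDIP2 KO. The share of SEMA3E was 2.75%, 2.07% and 2.48% in the WT libraries and 1.20%, 0.976% and 0.762% in POLDIP2 KO, and these did not overlap. The share of SEMA3F was 1.10 ± 0.630% against 2.23 ± 0.928%, and that of SEMA3A 0.497 ± 0.258% against 1.18 ± 0.813%. The lowest share of SEMA3B and SEMA3C together in any library was 93.9%. Of the sum of the 4 receptors, 1332 ± 390 per kb in WT and 1512 ± 609 in POLDIP2 KO, PLXND1 made up 42.8% to 63.1% in WT and 46.1% to 70.1% in POLDIP2 KO, and PLXNA2 4.73 ± 1.87% and 2.27 ± 1.16%.

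Among the receptors, PLXNA2 was the gene without overlap between the lines. PLXNA2, which pairs with neuropilins and can also bind class 6 semaphorins, had 649, 749 and 1042 normalised counts in WT and 359, 565 and 346 in POLDIP2 KO, so that the highest POLDIP2 KO library was below the lowest WT library. The means were 813 ± 204 and 423 ± 123, a ratio of 0.520, and the log2 fold change was -0.95 (standard error 0.257). The same-numbered ratios were 0.553, 0.755 and 0.332, the lowest in replicate 3, as for the other members except SEMA3B, PLXNA1 and PLXND1.

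The other 3 receptors overlapped. PLXND1, the SEMA3E receptor of the vascular endothelium, had 10675, 4857 and 4913 normalised counts in WT and 14838, 5167 and 6400 in POLDIP2 KO, and the replicate 1 library of each line was far above the other two. Its log2 fold change was 0.32 (standard error 0.459), and it was -0.14 without POLDIP2 KO replicate 1. That fit had no replicate block and kept the high WT replicate 1. The same-numbered ratios of 1.39, 1.06 and 1.30 were all above 1. The summed normalised count of 9 fibroblast markers was also highest in replicate 1 of each line, at 6908 against 2175 and 2979 in WT and 14451 against 2116 and 4868 in POLDIP2 KO. Most of the sum was COL1A1 and PDGFRB, at 2147 and 4623 in WT replicate 1 and 6956 and 6572 in POLDIP2 KO replicate 1. None of the 9 was at the floor of 3 reads in every library, but DCN (0 to 11 reads) and LUM (0 to 8 reads) did not pass the expression filter. The part of these markers in the PLXND1 values was not tested. COL1A1, a collagen chain among these markers, had same-numbered ratios of 3.24, 2.37 and 2.89 (limma, adjusted p = 0.981, 0.0436 with the replicate block, and 1.8e-21 by DESeq2 with the block). Of the 7 fibroblast markers tested, COL1A1 was the 1 that was higher in POLDIP2 KO in every pair, against 17.0% of all genes. Lower in every pair was 1, PDGFRA, with ratios of 0.822, 0.811 and 0.951, against 15.7% of all genes. PLXNA1 had 5589, 4351 and 4017 in WT and 5359, 3820 and 3776 in POLDIP2 KO, also highest in replicate 1. Its log2 fold change of -0.11 (standard error 0.185) was 0.03 without WT replicate 1, in a fit that kept POLDIP2 KO replicate 1. The same-numbered ratios were 0.959, 0.878 and 0.940. PLXNA3 had 1274, 879 and 2969 in WT and 1867, 2949 and 1376 in POLDIP2 KO. For PLXNA3 the same-numbered libraries went in different directions, with ratios of 1.47, 3.35 and 0.463, and the log2 fold change of 0.40 (standard error 0.469) ran from 0.01 to 0.89 when 1 library was left out.

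**Figure D2:**
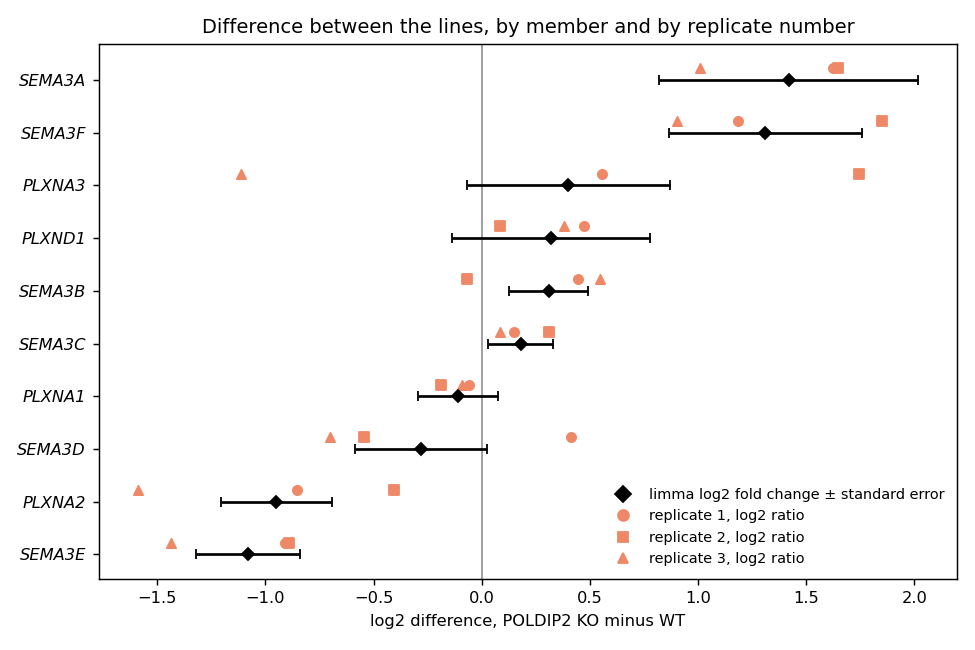
Log2 difference between POLDIP2 KO and WT for each gene, with black diamonds and bars for the limma log2 fold change ± standard error of 3 against 3 libraries and orange markers for the log2 ratio within each replicate number. SEMA3A at 1.42 and SEMA3F at 1.31 stand at the top, PLXNA2 at -0.95 and SEMA3E at -1.08 at the bottom, and PLXNA3 has replicate ratios on both sides of 0.

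Counted together, 6 of the 10 genes had a log2 fold change above 0, against 49.9% of all 14684 tested genes, and their median was 0.25. Lower in POLDIP2 KO without overlap were 2 of 10 (SEMA3E and PLXNA2), a property of 5.44% of all genes, and higher without overlap were 0, against 5.46%. In all 3 same-numbered pairs, 4 genes were higher (SEMA3A, SEMA3C, SEMA3F and PLXND1, against 17.0% of all genes) and 3 were lower (SEMA3E, PLXNA1 and PLXNA2, against 15.7%). By limma, at a Benjamini-Hochberg adjusted p under 0.05 and a fold over 1.5, 0 of the 10 were called, against 0.17% of all genes, and at an unadjusted p under 0.05 there were 4, against 6.48%. When limma took replicate numbers as blocks, 0 were called, against 0.204% of all genes. The edgeR quasi-likelihood test on recovered reads also called 0, against 0.116%. DESeq2 on the same reads called 1, SEMA3E, against 1.69% of all genes. DESeq2 with the replicate number as a block called 4, SEMA3A, SEMA3E, SEMA3F and PLXNA2, against 2.67%. The genes were chosen by family name with the values of this contrast already known, so these counts are a description only.

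The genes whose values over the 6 libraries were most like those of SEMA3E and PLXNA2 were found by Pearson correlation of log2(normalised count + 1) over 14683 other genes, which share the libraries and their scaling. For SEMA3E these were KIAA0040 (r = 0.9987), ENTREP1 (r = 0.9924) and RHPN2 (r = 0.9919), and 52 genes had r above 0.95. KIAA0040 had 157, 119 and 94.0 normalised counts in WT and 38.1, 27.7 and 10.9 in POLDIP2 KO. It was picked as the closest of 14683 genes over only 6 libraries, so its sharing the order of libraries with SEMA3E follows from that choice. ENTREP1 was low, with 2.98 in POLDIP2 KO replicate 3, the floor of that library. For PLXNA2 they were FAM200B (r = 0.9880), DDX11L10 (r = 0.9812), which belongs to a multi-copy pseudogene family and is uncertain, and PRICKLE1 (r = 0.9809), with 21 genes above 0.95. PRICKLE1, a planar cell polarity gene, had 434, 531 and 740 normalised counts in WT and 249, 339 and 267 in POLDIP2 KO.

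The neuropilin co-receptors, which were not among the chosen genes, did not pass the test. NRP1 had 1123, 1897 and 2233 normalised counts in WT and 1308, 3694 and 2873 in POLDIP2 KO, and the lines overlapped although every same-numbered pair was higher in POLDIP2 KO. Its log2 fold change was 0.51, with a 95% interval of -0.47 to 1.5 (limma, adjusted p = 0.9998 over all genes tested, 0.33 with the replicate block). NRP2 had 552, 510 and 2063 in WT and 1535, 1008 and 1776 in POLDIP2 KO, with a log2 fold change of 0.75 and an interval of -0.52 to 2.01 (limma, adjusted p = 0.9998, 0.494 with the block). Leaving out 1 library gave 0.39 to 1.4 for NRP2, the highest without WT replicate 3, and 0.20 to 0.95 for NRP1. The intervals include both no difference and one of over 1.5-fold. Per kb, NRP1 had 152 ± 49.4 in WT and 228 ± 105 in POLDIP2 KO, and NRP2 75.0 ± 63.7 and 104 ± 28.3, so by merged exons every library had less of both co-receptors than of PLXNA1. By the longest transcript this did not hold for NRP1, which had 628 and 488 per kb in POLDIP2 KO replicates 2 and 3 against 410 and 406 for PLXNA1.

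Of 63 further genes of the pathway, including the neuropilins, SEMA3G and PLXNA4, 52 passed the expression filter. Limma called 0 of the 52 (0.17% of all genes), limma with the replicate block 0 (0.204%) and edgeR 0 (0.116%), while 6 had an unadjusted limma p under 0.05 (6.48%). DESeq2 called 1, both without the block (1.69% of all genes) and with it (2.67%). Their median log2 fold change was 0.04, 32 of 52 were above 0, against 49.9% of all genes, 6 were higher without overlap (PLXNB2, PLXNB3, SEMA4B, RAP1B, NRCAM and VEGFC, against 5.46% of all genes) and 1 was lower without overlap (FLT4, against 5.44%). All 4 plexins of the B and C types had a log2 fold change above 0, whereas PLXNA4, below the expression filter, averaged 8.88 ± 6.99 in the WT libraries and 2.82 ± 1.42 in those of POLDIP2 KO, with overlap. PLXNB2, a receptor of class 4 semaphorins and per kb the most abundant plexin here at 4175 ± 166 in WT and 5091 ± 628 in POLDIP2 KO, differed by 0.28 on the log2 scale (limma, adjusted p = 0.83), and PLXNB3, the SEMA5A receptor, by 0.41 (limma, adjusted p = 0.682). Among 11 other semaphorins, with a median of 0.16, SEMA4D, a ligand of PLXNB1, had -0.74 (limma, adjusted p = 0.746), and SEMA6A, at 4 reads in 3 of the libraries, had 0.65 (limma, adjusted p = 0.9998).

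The 21 tested transducers of plexin signals had a median absolute log2 fold change of 0.06, the smallest of these lists, with values from -0.20 for MICAL3, a flavin monooxygenase of the family that acts on actin, to 0.23 for FYN, a Src-family kinase. The signed median was 0.01, and the limma adjusted p was 0.9998 for both. Among 7 partners that share complexes with neuropilins or plexins, FLT4, the lymphatic VEGF receptor, had 52.9, 53.2 and 44.9 normalised counts in WT and 25.8, 12.2 and 23.8 in POLDIP2 KO. Its log2 fold change was -1.31 (limma, adjusted p = 0.478), and that of NRCAM, a neuronal adhesion molecule, was 1.06 (limma, adjusted p = 0.701). Neither passed. Of the proteases that process class 3 semaphorins, PCSK5 had -0.42 and PCSK7 -0.15 (limma, adjusted p = 0.9998 for both).

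VEGFC, a lymphatic growth factor that binds NRP2 and FLT4, had the smallest p of these lists. It had 752, 690 and 831 normalised counts in WT and 1176, 1437 and 1197 in POLDIP2 KO, and the lines did not overlap. The log2 fold change was 0.74 (standard error 0.135), with an adjusted p of 0.159 by limma, 0.134 by limma with the replicate block and 0.158 by edgeR, none under 0.05, whereas DESeq2 gave 0.000701 and DESeq2 with the block 0.00187. PGF, a placental growth factor, had -0.96 (limma, adjusted p = 0.981). Among markers of other cell types than fibroblasts, 1 of 8 endothelial markers (CDH5), 6 of 8 neuron markers and 4 of 8 leukocyte markers were at 3 reads or fewer in every library. The summed normalised counts were 575 to 1145 in WT and 609 to 998 in POLDIP2 KO for the endothelial list, 381 to 783 and 498 to 562 for the neuron list, and 1683 to 2218 and 1877 to 2145 for the leukocyte list, so each sum overlapped between the lines. These sums rested on few genes. ROBO4 and EGFL7 had 670 and 426 of the 1145 in WT replicate 2. In WT replicate 1, SYT1 had 780 of the 783 and CD68 had 1680 of the 1683. PECAM1, TEK, TIE1 and ESAM had 9 reads or fewer in every library. PTPRC, a leukocyte marker below the expression filter, had 0 in every WT library and 1.23, 3.26 and 6.95 in POLDIP2 KO.

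**Figure D3:**
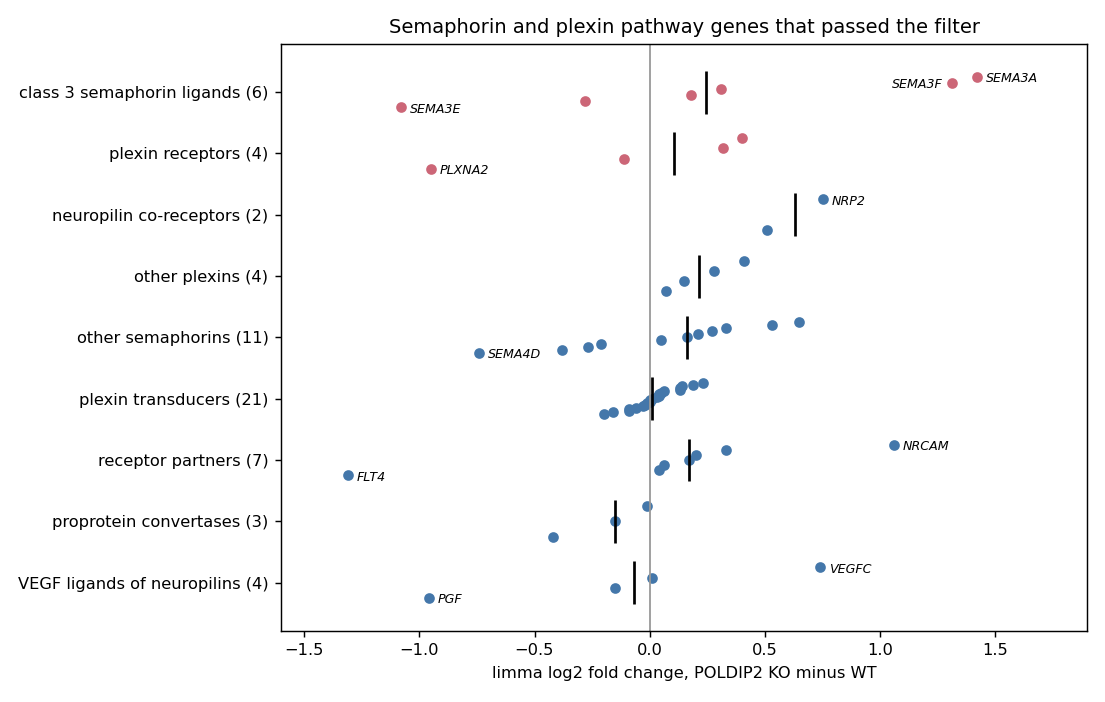
Limma log2 fold change, POLDIP2 KO minus WT, of each tested gene in lists of pathway genes, with the number of genes in brackets, the 10 chosen genes in red, the others in blue and a black bar for the median of a list. The transducers lie between -0.20 and 0.23, and the widest spread is in the class 3 ligands, from -1.08 to 1.42, and in the receptor partners, from -1.31 to 1.06.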

How the data were processed

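Polyadenylated RNA of 3 WT and 3 POLDIP2 KO replicates was analysed from the normalised counts (a signal per gene) that the authors deposited. The authors had quantified reads with Salmon 1.8, summarised them per gene (tximport, GRCh38) and divided them by DESeq2 1.34.0 size factors, per the submitters' processing notes and the methods of the study. The annotation release is not given in the sources used here. Symbols, positions and exon lengths came from GENCODE, and 0 columns were left out. Division by the smallest value of each library recovered reads (100% of values whole within 0.001), although this says little where 1 read is worth nearly 1 count (WT replicate 2, POLDIP2 KO replicate 3).

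Lines were compared with limma 3.58.1 in R 4.3.3 (lmFit, eBayes with trend) on log2(normalised count + 1), which understates the change of low genes, keeping genes whose mean was 10 or more, with Benjamini-Hochberg adjustment over all 14684 genes and thresholds of 0.05 and a fold of 1.5. An exact permutation test of 3 against 3 libraries cannot go below p = 0.1. edgeR 4.0.16 and DESeq2 1.42.0 on recovered reads were alternatives. The members and lists were chosen with earlier results of these data known. Named are all members, SEMA3G, PLXNA4, NRP1, NRP2, POLDIP2, per list the called genes or otherwise the 2 with the largest absolute log2 fold change, and the 3 genes most like SEMA3E and PLXNA2, which had the largest absolute moderated t. Named after their values were seen were SEMA4B, RAP1B and FURIN, the markers, and the genes between SEMA3C and SEMA3E.

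Values centred within each line correlated at 0.315, 0.137 and 0.129 between same-numbered libraries over 14684 genes, and at -0.259 to 0.147 in other combinations. All same-numbered values exceeded the limit of 0.1 used for pairing, but so did 0.147 for WT replicate 3 with POLDIP2 KO replicate 2. Only replicate 1 stood apart, so these values do not establish pairing of replicates 2 and 3. The replicate number was used as a block in an alternative only. Steps were tested on simulated data with independent libraries and no replicate effect. DESeq2 with the replicate block was not among the fits tested in this way. Intervals and floors cover counting and replicate error only. SEMA7A was not analysed here. Other steps ran in Python 3.11.15 (pandas 2.3.3, numpy 2.4.6, matplotlib 3.10.9).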

Additional observations from a re-analysis of the deposited data

How the results depend on the processing

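Of 421 log2 fold changes recomputed for 25 of the named genes, 404 kept their direction and their side of the threshold. Against 25 genes called by limma over all genes, 16 were called with a mean of at least 50, 248 by DESeq2, 392 by DESeq2 with the replicate block, and 0 to 5 when 1 library was left out (5 without WT replicate 1, 4 without POLDIP2 KO replicate 1). The replicate block in limma gave 30, with 0 members and 0 pathway genes. Of the members, 0 were called by limma, 1 by DESeq2 and 4 by DESeq2 with the replicate block, and of the pathway genes 0, 1 and 1. The cause was not tested. The number of members above 0 was 6, and 5 to 7 when 1 library was left out.

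When 1 library was left out, the log2 fold change ran from -0.28 to 0.03 for PLXNA1, from -0.14 to 0.69 for PLXND1, from -0.04 to 1.39 for SEMA6A, from -0.12 to 0.57 for FYN and from -0.27 to 0.05 for PCSK7, and these were the only reversals among them. The fits with 1 library left out had no replicate block. The same-numbered ratios were all below 1 for PLXNA1 and all above 1 for PLXND1. The replicate block in limma changed the call of COL1A1 and of no member or pathway gene. Without 1 library, the log2 fold change ran from -1.26 to -0.83 for SEMA3E, -1.18 to -0.76 for PLXNA2, 0.83 to 1.89 for SEMA3A and 0.98 to 1.70 for SEMA3F. POLDIP2 passed 0.05 in limma with all libraries (adjusted p = 0.00961) and missed it in 4 of the 6 fits without 1 library. The members had 71 reads or more in every library, and the precision is limited by the 3 libraries of each line.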
